A study of Mus musculus with 6 samples.

Results

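The genes that flank Gata2 on mouse chromosome 6 were examined in common myeloid progenitors from fetal liver, to see whether transcripts other than Gata2 changed when a distal Gata2 enhancer was deleted. The set holds 10 genes named for their place beside Gata2, namely Isy1, Cnbp, Copg1, Rab7 and Rpn1 upstream and Dnajb8, Eefsec, Ruvbl1, Sec61a1 and Mgll downstream. All 10 matched an Ensembl identifier among the 24815 gene rows of the deposited tables. The comparison was between 2 groups of 3 libraries each. The -77 mutant group (genotype -77-/-; libraries C, D and Q) lacked both copies of the enhancer, which is named for its distance in kilobases upstream of Gata2. The wild-type group (libraries A, F and L) was its control. Both groups came from C57BL/6 embryos at E13.5 and were sorted by flow cytometry as lineage-negative, Sca-1-negative, c-Kit-positive, CD34-positive cells with low Fc receptor. CD41 and CD48 were among the markers that excluded cells. Whether a library came from 1 embryo or from pooled embryos is not given in the sources used here, so p-values measure the spread between these libraries only, which may be technical.

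An enhancer is a stretch of DNA that raises transcription of a gene that can lie far away, and the same element can act on more than one gene within its chromosomal neighbourhood. GATA2 is a zinc finger transcription factor of blood stem and progenitor cells, and several enhancers upstream of and within its gene drive it. In human leukaemias with an inversion of chromosome 3, the distal GATA2 enhancer is moved away from GATA2 to the oncogene MECOM, and the break often lies near RPN1, the next gene along. Most genes beside Gata2 serve general cell functions such as protein secretion, splicing and membrane traffic, and are transcribed in most cell types.

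The libraries held 14473913 to 30596279 expected counts each. Mutant C stood apart. Pearson correlations of log2 CPM (counts scaled to a common library total, with TMM factors) across genes were 0.880 to 0.923 between mutant C and the other 5 libraries, and 0.974 to 0.989 among those 5. Its count-weighted mean transcript length was 1781 bases, against 2834 to 3124 bases in the others. The fitted changes of Gata2, its neighbours and the partner genes named are therefore given with and without it, while the TPM levels and the nearest genes in pattern use all 6 libraries. Transcripts of the sorted population were present in all libraries: Cd34 had 998 to 1254 CPM in the mutant and 685 to 862 CPM in wild type, and Kit had 102 to 292 CPM in the mutant and 317 to 337 CPM in wild type. Ly6a, which encodes Sca-1, had 0.589 to 3.08 CPM in the mutant and 0.437 to 1.18 CPM in wild type. Of 4 T cell markers, Cd3e alone was at 0 throughout. The 4 summed to 2.75 to 4.21 CPM in the mutant and 3.02 to 6.49 CPM in wild type. Cd48, whose protein was selected against, had 122 to 446 CPM in the mutant and 90.1 to 114 CPM in wild type. Itga2b, which encodes the likewise excluded CD41, went the other way, with 7.82 to 8.12 CPM in the mutant and 26.2 to 37.4 CPM in wild type. Fcgr3, which encodes an Fc receptor, had 77.1, 24.3 and 25.1 CPM in mutants C, D and Q and 25.2 to 31.8 CPM in wild type.

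The start of Gata2 (ENSMUSG00000015053) lies at position 88193891 of chromosome 6 on the plus strand of mm10, in the GENCODE M21 annotation of that build. The coordinates of the deletion were not used here, so only its nominal place 77 kb upstream can be given. That point lies in the 88.6 kb between the end of Rpn1 and the start of Gata2. Among annotated genes, 1 long non-coding RNA and no gene with a row in the deposited tables lies within that interval. The nominal point is 11.6 kb beyond the end of Rpn1, 32.4 kb from its start and 71.6 kb from the start of Rab7. It is therefore closer to the starts of Rpn1 and Rab7 than to that of Gata2. Further upstream of Gata2, the starts of Copg1, Cnbp and Isy1 lie 306, 343 and 355 kb away. Downstream, the starts of Dnajb8, Eefsec, Ruvbl1, Sec61a1 and Mgll lie 28.4, 253, 272, 325 and 531 kb from that of Gata2.

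Promoter sequences are shown for Gata2, for Rpn1 and Rab7 as the protein-coding genes nearest to the nominal point, for Ruvbl1 as a downstream gene with a GATA motif, and for Mgll, the neighbour with the largest fitted change among the 9 for which a fold change is given. They cover 250 bases before to 50 after a RefSeq gene start (build GRCm38.p6), 5′ to 3′ on the gene's strand. Capitals mark a GATA motif, searched on both strands as AGATAA and AGATAG, and as the same letters with T in the leading place.
Gata2, first start, chr6:88193641-88193940, plus strand: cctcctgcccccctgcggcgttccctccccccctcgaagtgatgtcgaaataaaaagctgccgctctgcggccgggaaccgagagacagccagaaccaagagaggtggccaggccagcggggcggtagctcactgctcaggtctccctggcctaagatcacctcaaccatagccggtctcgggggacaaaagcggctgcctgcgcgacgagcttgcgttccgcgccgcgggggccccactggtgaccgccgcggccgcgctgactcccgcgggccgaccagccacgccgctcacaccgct
Rpn1, chr6:88084223-88084522, plus strand: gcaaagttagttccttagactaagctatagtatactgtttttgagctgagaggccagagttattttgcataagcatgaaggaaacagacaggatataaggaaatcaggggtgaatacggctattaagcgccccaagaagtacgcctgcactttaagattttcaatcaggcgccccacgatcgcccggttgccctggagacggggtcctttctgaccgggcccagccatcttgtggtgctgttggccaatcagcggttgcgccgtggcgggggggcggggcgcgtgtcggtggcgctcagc
Rab7, first start, chr6:88045221-88045520, minus strand: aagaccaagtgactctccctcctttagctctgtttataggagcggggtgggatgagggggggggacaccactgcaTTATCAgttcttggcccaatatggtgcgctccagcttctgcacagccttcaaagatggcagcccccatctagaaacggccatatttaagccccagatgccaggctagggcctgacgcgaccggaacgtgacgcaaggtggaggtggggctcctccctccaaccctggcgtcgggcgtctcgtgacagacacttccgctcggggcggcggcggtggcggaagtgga
Ruvbl1, chr6:88465159-88465458, plus strand: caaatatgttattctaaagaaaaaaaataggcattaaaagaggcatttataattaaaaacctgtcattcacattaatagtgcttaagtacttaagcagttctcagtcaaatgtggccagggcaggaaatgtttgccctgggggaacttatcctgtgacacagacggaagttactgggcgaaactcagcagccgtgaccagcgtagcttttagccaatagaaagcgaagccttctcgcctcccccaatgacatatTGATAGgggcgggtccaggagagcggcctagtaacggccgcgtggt
Mgll, first start, chr6:88724162-88724461, plus strand: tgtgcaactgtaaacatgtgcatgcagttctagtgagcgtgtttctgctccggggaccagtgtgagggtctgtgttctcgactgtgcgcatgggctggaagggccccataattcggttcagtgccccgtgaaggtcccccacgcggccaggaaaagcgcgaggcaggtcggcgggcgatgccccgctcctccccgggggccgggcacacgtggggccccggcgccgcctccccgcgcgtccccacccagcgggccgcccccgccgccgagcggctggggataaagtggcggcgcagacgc
RefSeq promoters were matched for Gata2 and 9 of the 10 members, 13 sequences in all. Of these, 2 held a GATA motif, 1 each in Rab7 and Ruvbl1, while 29.8% of all 32851 promoters held one. Neither Gata2 promoter held one, and neither did those of Rpn1 and Mgll. The CpG ratio (observed over expected CG pairs) was 0.82 for Rpn1, 0.65 for the first Rab7 start, 0.71 for Ruvbl1 and 0.32 for Dnajb8, against a median of 0.384 over all promoters. Dnajb8 had the lowest ratio of the 13.

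Gata2 itself serves as the yardstick. Its level was 8.92, 16.5 and 17.8 CPM in mutants C, D and Q, against 78.6, 57.4 and 63.9 CPM in wild types A, F and L. The groups did not overlap. The log2 change by edgeR's quasi-likelihood test was -2.20, with a 95% interval of -2.91 to -1.48, and it missed the threshold of 0.05 over all genes (adjusted p = 0.068). Without mutant C it was -1.97, with an interval of -2.31 to -1.63, and Gata2 fell past the threshold (adjusted p = 0.00194). In bulk samples, fewer cells that express a gene and less RNA per cell cannot be told apart.

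Of the 10 neighbours, 8 had enough counts to be tested, and 0 of these 8 passed the threshold. Over all 12222 genes tested, 0.155% passed by edgeR's quasi-likelihood test. None of the 8 had an unadjusted p under 0.05 (4.80% of all genes did), and DESeq2 called none of them (0.730% of all genes). The 8 were Isy1, Cnbp, Copg1, Rab7, Rpn1, Eefsec, Ruvbl1 and Sec61a1. Their median log2 change was 0.25, and single values ran from -0.11 to 0.63, beside a median of -0.02 over all genes. Without mutant C the median was 0.06, the values ran from -0.07 to 0.12, and again 0 passed by edgeR, where 0.840% of 12614 genes passed. In that fit 0 of the 8 had an unadjusted p under 0.05 by edgeR, beside 10.4% of all genes. The median size of change, regardless of sign, was then 0.07 among the 8 and 0.12 over all genes. The 95% intervals of the 8 lay entirely above that of Gata2 in both fits. Their lowest bound was -0.52 with all libraries and -0.22 without mutant C, both for Copg1.

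**Figure D1:**
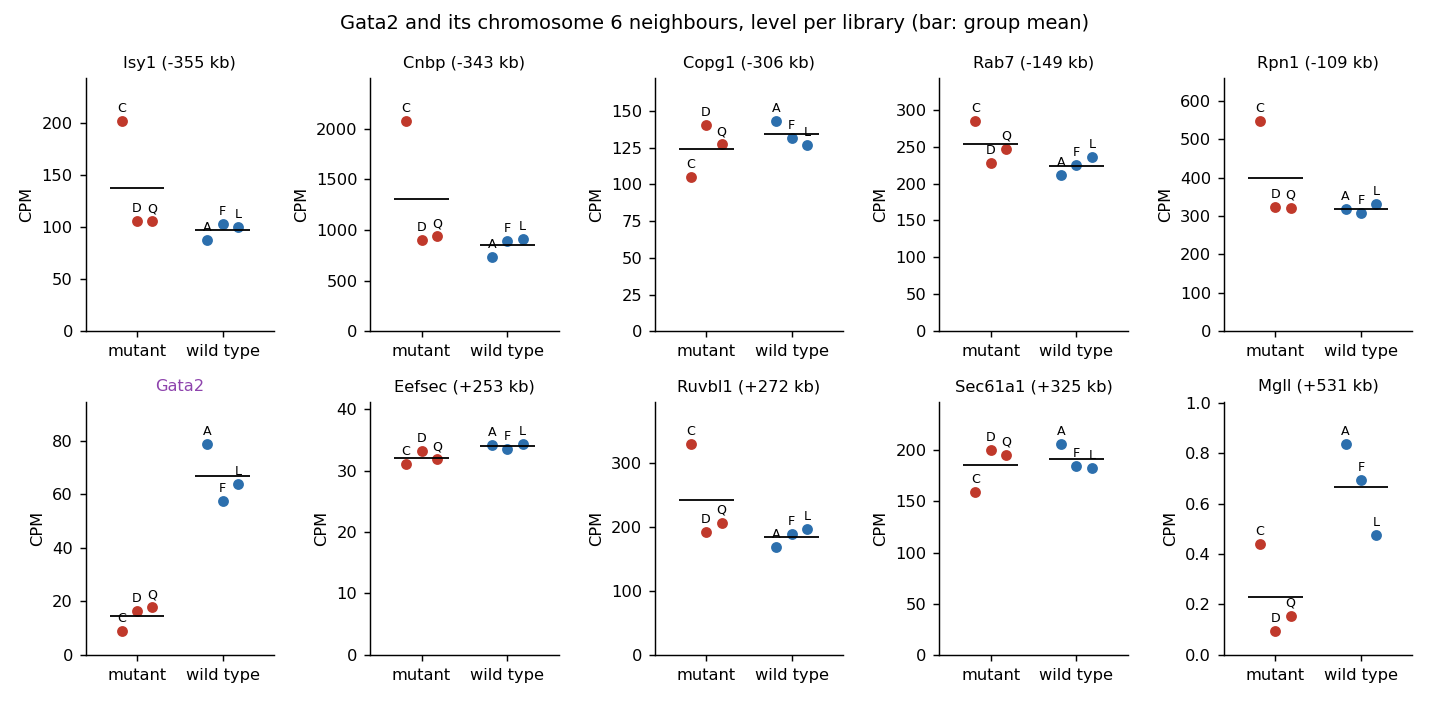
Level of Gata2 and of its 9 detected neighbours in each library, in TMM-scaled CPM on axes that start at 0, ordered by position, with the distance of each gene start from that of Gata2 in kb. Red points are mutant libraries C, D and Q, blue points are wild-type libraries A, F and L, and black bars are group means. Gata2 and Mgll are lower in all mutants, while Isy1, Cnbp, Rpn1 and Ruvbl1 are highest in mutant C, with mutants D and Q close to wild type.

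Rpn1 is the protein-coding gene nearest to the nominal point and encodes ribophorin I, a subunit of the oligosaccharyltransferase that attaches sugar chains to proteins entering the endoplasmic reticulum. It had 548, 324 and 322 CPM in mutants C, D and Q, against 318, 308 and 330 CPM in wild types A, F and L. Mutant C was the highest of the 6 libraries, and mutants D and Q lay within the wild-type range. The log2 change was 0.32 (interval -0.30 to 0.94, adjusted p = 0.593 by edgeR) with all libraries. Without mutant C it was 0.01 (interval -0.16 to 0.18, adjusted p = 0.970 by edgeR), so a fall larger than the bound of -0.16 lay outside the interval.

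Rab7 encodes the small GTPase of late endosomes and lysosomes. Its level was 285, 227 and 247 CPM in the mutants and 212, 225 and 235 CPM in wild type. The groups overlapped, and the log2 change was 0.18 (interval -0.23 to 0.58) with all libraries and 0.07 (interval -0.12 to 0.26) without mutant C. An antisense transcript listed at Rab7, Gm5577, shares part of its span and held 104 counts over all libraries, against 2590.0 to 7961 counts per library for Rab7. Since strandedness is not given in the sources used here, reads of the pair cannot be told apart.

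Copg1, Cnbp and Isy1 lie farther upstream. Copg1 encodes the gamma subunit of the COPI vesicle coat, which returns proteins from the Golgi to the endoplasmic reticulum. It had 105, 140.5 and 127.3 CPM in mutants C, D and Q and 144, 132 and 127.2 CPM in wild types A, F and L. Mutant C was the lowest library, and the log2 change was -0.11 with all libraries and -0.01 without mutant C.

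Cnbp encodes a zinc finger protein that binds single-stranded nucleic acids, and in humans a repeat expansion in its first intron causes myotonic dystrophy. It had 2080.0, 903 and 939 CPM in mutants C, D and Q and 737, 887 and 915 CPM in the wild types. Its interval was the widest of the 8, from -0.28 to 1.53 around a log2 change of 0.63. Without mutant C the interval was -0.13 to 0.36 around 0.12.

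Isy1 encodes a splicing factor of the catalytic spliceosome. Its levels were 203, 106 and 106 CPM in mutants C, D and Q and 87.9, 103 and 101 CPM in the wild types, so every mutant library was above every wild-type library. The excess of D and Q was small: without mutant C the log2 change was 0.12 with an interval of -0.08 to 0.32 (adjusted p = 0.658 by edgeR). With all libraries it was 0.51 (interval -0.20 to 1.21, adjusted p = 0.578 by edgeR).

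Eefsec, the first expressed gene downstream, encodes the elongation factor that delivers selenocysteine to the ribosome. It had 31.1, 33.2 and 31.9 CPM in mutants C, D and Q and 34.1, 33.5 and 34.3 CPM in wild types A, F and L. Every mutant library was lower, by a small margin: the log2 change was -0.08 (interval -0.39 to 0.23) with all libraries and -0.07 (interval -0.22 to 0.08) without mutant C. Neither passed by edgeR (adjusted p = 0.715 and 0.723). Eefsec and Isy1 were the 2 of the 8 tested neighbours whose groups did not overlap, 1 lower and 1 higher, and over all tested genes the groups did not overlap in 22.0%. Those lower in every mutant made up 11.4% of all tested genes and those higher 10.6%. With mutants D and Q alone, Eefsec and Isy1 were again the 2 without overlap, where 28.9% of all genes had none and 14.6% were lower in both mutants.

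Ruvbl1 encodes an ATPase shared by chromatin remodelling and protein assembly complexes. Its level was 329, 192 and 207 CPM in mutants C, D and Q and 168, 189 and 197 CPM in the wild types. Mutant C was again the highest library. The log2 change was 0.40 (interval -0.20 to 0.99) with all libraries and 0.11 (interval -0.10 to 0.31) without mutant C.

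Sec61a1 encodes the channel subunit of the translocon, through which new proteins enter the endoplasmic reticulum. It had 159.6, 201 and 196 CPM in the mutants and 206, 185 and 183 CPM in the wild types. The log2 change was -0.04 (interval -0.45 to 0.36) with all libraries, and 0.04 (interval -0.16 to 0.24) without mutant C.

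Mgll, the most distant member, was the exception in size. It encodes monoacylglycerol lipase, which breaks down monoacylglycerols, among them an endocannabinoid. It was counted 4, 2 and 5 times in mutants C, D and Q, against 21.0, 11 and 8 times in wild types A, F and L. The levels were 0.441, 0.0956 and 0.155 CPM in the mutants and 0.835, 0.694 and 0.474 CPM in the wild types. All mutants were lower than all wild types, though mutant C and wild type L were close.

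Mgll missed the filter on low counts with all libraries, so it was tested in the fit without a filter. There the log2 change was -1.75 (interval -3.22 to -0.28), with an unadjusted p of 0.0254 and an adjusted p of 0.639 by edgeR. In that fit 5.74% of 18426 genes had an unadjusted p under 0.05 and 0.195% passed the threshold. DESeq2 gave -1.75 (adjusted p = 0.617). Without mutant C the filter kept Mgll, but only through wild-type libraries, the group where it is high, so the log2 change of -2.34 there (interval -3.62 to -1.06) is a description with no test. Its interval overlapped that of Gata2. With counts this low, Mgll has no call in either direction.

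Dnajb8 is the annotated protein-coding gene nearest to the Gata2 start and encodes a heat shock protein 40 family cochaperone known from testis. It had 0 counts in all mutant libraries and 1 count in wild type F alone among the wild types. A count of 0 allows up to 3 counts, or 0.0930 to 0.330 CPM depending on the library, for counting error only. Expression was thus not detectable in either genotype, and no fold change is given. Of 4 spermatid genes, Prm2 and Tnp1 were at 0 in all libraries, and Prm1 and Tnp2 did not exceed 0.0956 CPM in any library.

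**Figure D2:**
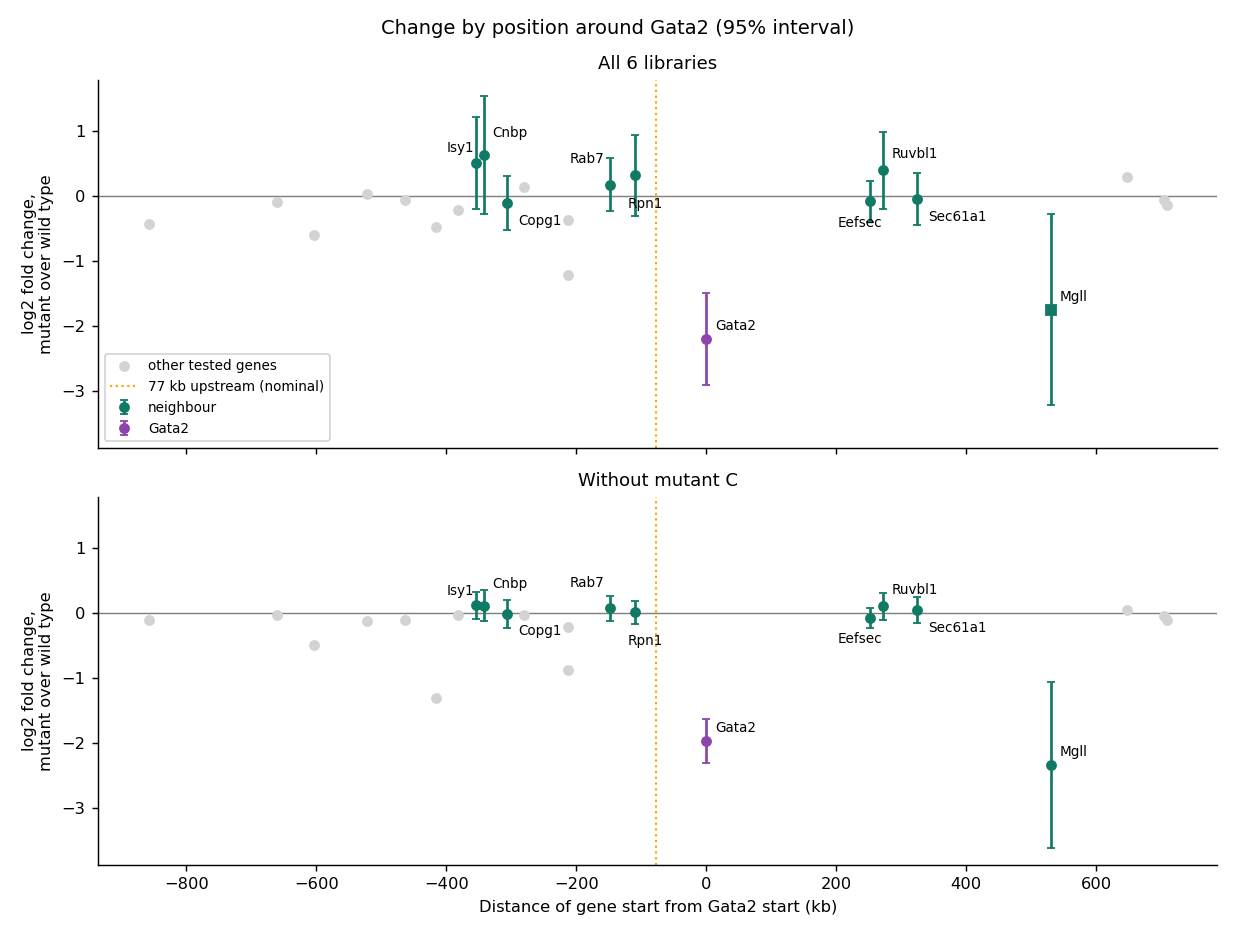
The log2 fold change of mutant over wild type against the distance of each gene start from the Gata2 start in kb, with all 6 libraries in the upper panel and without mutant C in the lower one. Green points are neighbours, purple is Gata2, grey points are the other tested genes within 1 Mb, bars are 95% intervals, the square is Mgll from the fit without a filter, and the dotted line is 77 kb upstream. The 8 tested neighbours lie between -0.11 and 0.63 in the upper panel and between -0.07 and 0.12 in the lower one, with Gata2 at -2.20 and -1.97.

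The change of Gata2 relative to each neighbour was compared within libraries. The log2 ratio of Gata2 to Rpn1 was -5.93, -4.29 and -4.17 in mutants C, D and Q, and -2.02, -2.42 and -2.37 in wild types A, F and L. Every mutant was lower than every wild type in this ratio for 8 of 9 detected neighbours, as it was for 97.5% of all genes set against Gata2. For these 8 the difference between group means ran from -2.77 (Cnbp) to -2.13 (Copg1), and without mutant C from -2.07 (Cnbp) to -1.88 (Eefsec). Each gave an exact two-sided permutation p of 0.1, the smallest that 3 against 3 libraries can give, and 0.1125 adjusted over the 9 pairs. For Mgll the ratio overlapped between groups, with a difference of -0.92 (exact permutation p = 0.3), on a scale whose prior count of 2 draws low counts together.

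Levels between genes were compared in the deposited TPM, which corrects for transcript length. In the mutant, Cnbp averaged 914 ± 111 TPM (SD, n = 3), clear of the next gene, Ruvbl1, with 187 ± 50.6. In wild type, Cnbp averaged 984 ± 39.1 TPM and Ruvbl1 220.2 ± 2.13. From Ruvbl1 down to Eefsec the mutant means fell in the order Ruvbl1, Rab7, Rpn1, Isy1, Sec61a1, Copg1, Eefsec. The ranges of adjacent genes in that order overlapped, with mutant C the lowest library for each. Within single mutant libraries the order held, except that Rpn1 stood above Rab7 in mutant C (97.4 against 96.3 TPM). In wild type the order was Ruvbl1, Rab7, Rpn1, Sec61a1, Isy1, Copg1, Gata2, Eefsec, and only Ruvbl1 with Rab7 and Sec61a1 with Isy1 had overlapping ranges. Gata2 stood below Eefsec in the mutant mean, with 7.12 ± 4.56 against 17.1 ± 8.48 TPM, and was lower in each mutant library, though the ranges overlapped. In wild type it stood above Eefsec in all libraries, with 41.9 ± 9.88 against 25.2 ± 2.03 TPM. Mgll was at 0.0667 ± 0.0153 TPM in the mutant and 0.560 ± 0.277 TPM in wild type.

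The order of the libraries in TPM was not that in CPM. All 8 tested neighbours had their lowest TPM in mutant C, whereas 5 of them had their highest CPM there. The shares of all tested genes that did so were not counted, so neither count is a result about the neighbours. Rpn1 had 97.4, 169 and 149.7 TPM in mutants C, D and Q, against 188, 162 and 169.8 TPM in the wild types. On the log2(TPM + 1) scale the median change of all tested genes was -0.50. Relative to that median, the 8 neighbours ran from -0.20 to 0.39 by limma, whose test called 0 of them. It called 19 of all 12222 genes, and Gata2 was not among them (adjusted p = 0.378 by limma). None of the 8 had an unadjusted p under 0.05 by limma, and the share of all genes that did was not counted.

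**Figure D3:**
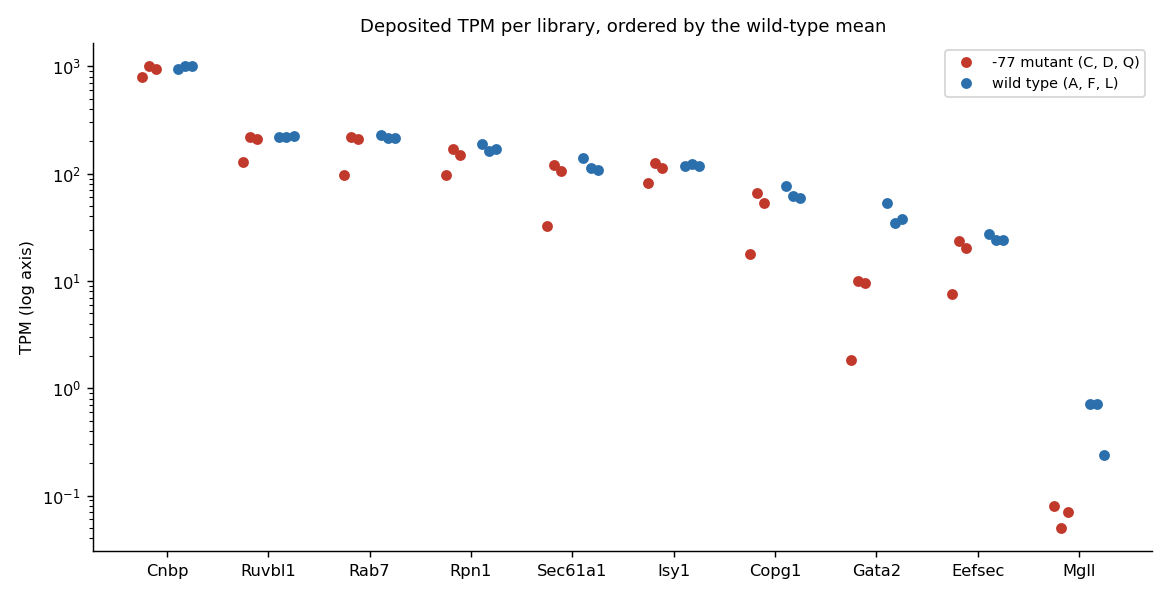
Deposited TPM of Gata2 and its 9 detected neighbours in each library, on a log axis, ordered by the wild-type mean from left to right. Red points are mutants C, D and Q and blue points are wild types A, F and L, each trio in that order. Cnbp is the highest in all libraries, Mgll the lowest, and Gata2 lies below Eefsec in the mutants and above it in the wild types.

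Mutant C was then set against mutants D and Q by transcript length. Among the 8, the log2 ratio of mutant C to the mean of mutants D and Q was 1.18 for Cnbp, 0.94 for Isy1 and 0.72 for Ruvbl1, whose mean lengths were 1715, 1620.0 and 1672 bases. For Sec61a1 and Copg1, of 3150.0 and 3996 bases, it was -0.31 and -0.34. Genes within 20% of the length of Isy1 had a median ratio of 0.67, and those within 20% of Copg1 had one of -0.60. Gata2 stood at -0.93, below the quartiles of -0.69 and 0.12 for genes of its length. Of the 8 neighbours, 6 lay between the quartiles of genes of like length, and the share of all tested genes that did was not counted. The other neighbours were Cnbp, at 1.18 where genes of like length had a median of 0.59, and Rpn1. Rpn1 is 3642 bases long and stood at 0.76, while genes of like length had a median of -0.47. The share of its length in these differences was not tested beyond an adjustment: with offsets for transcript length in the edgeR fit, the log2 change of Cnbp was 0.31 and that of Rpn1 was 0.61 (adjusted p = 0.530 for both).

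**Figure D4:**
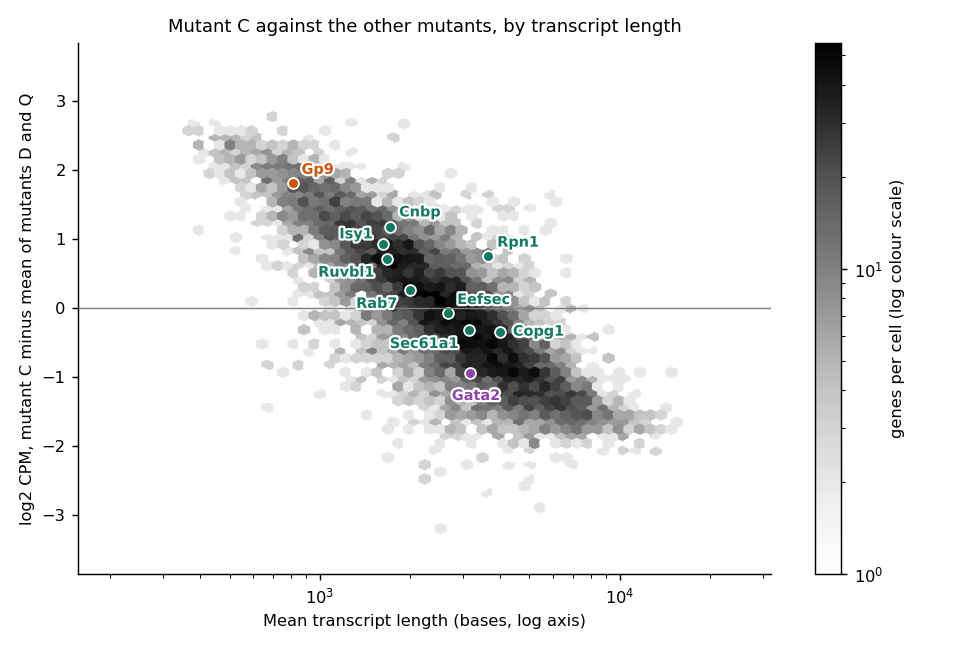
The log2 CPM of mutant C minus the mean of mutants D and Q against mean transcript length in bases on a log axis. Grey cells count the 12222 tested genes (darker is more, on a log colour scale), green points are the 8 tested neighbours, purple is Gata2 and orange is Gp9. Shorter transcripts stand higher in mutant C, and Rpn1 lies above genes of its length.

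Within 1 Mb on either side of the Gata2 start, 25 further genes had rows in the tables, and 7 of them were at 0 in all libraries. Of the 13 tested, 0 passed by edgeR with all libraries, beside 0.155% of all genes, and 0 without mutant C, beside 0.840%. An unadjusted p under 0.05 was seen in 0 of them with all libraries, beside 4.80% of all genes, and in 1 without mutant C, beside 10.4%. By DESeq2 0 passed, beside 0.730%. By edgeR their median log2 change was -0.14 with all libraries and -0.11 without mutant C, beside -0.02 and -0.01 over all genes. The linker histone gene H1fx, 212 kb upstream of Gata2, had 1.76, 3.20 and 2.45 CPM in mutants C, D and Q and 3.70, 3.34 and 2.66 CPM in the wild types (log2 change -0.37, interval -1.07 to 0.33, and -0.22 without mutant C, interval -0.81 to 0.38). In CPM the groups overlapped in all 13, while they did not overlap in 22.0% of all tested genes.

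Gp9 encodes a subunit of the platelet receptor for von Willebrand factor, lies 416 kb upstream of Gata2 and was singled out after its values were seen. It had 5.73, 1.29 and 1.86 CPM in mutants C, D and Q and 3.74, 3.34 and 4.68 CPM in the wild types. In CPM, mutants D and Q were below all wild types, and mutant C was above them. Gp9 had 4.74, 3.13 and 4.03 TPM in mutants C, D and Q and 10.3, 8.17 and 11.2 TPM in the wild types. On that scale every mutant was below every wild type, and the share of all genes for which this holds was not counted. The log2 change was -0.48 with all libraries and -1.30 without mutant C (interval -1.95 to -0.65, adjusted p = 0.1297 by edgeR). With mutant C and the filter both left out, a combination added after seeing the data, it passed (adjusted p = 0.0289 by edgeR, where 1.47% of 18292 genes passed). Its transcript is short, 811 bases, and genes of like length stood 1.62 higher on the log2 scale in mutant C than in mutants D and Q. The 6 megakaryocyte markers, which include Gp9, summed to 10.3 to 17.6 CPM in the mutant and 38.3 to 49.2 CPM in wild type. Itga2b, the gene of the gate marker CD41, made up 7.82 to 8.12 and 26.2 to 37.4 CPM of these sums. Of the other marker lists, 6 mast cell markers summed to 127 to 302 CPM in the mutant and 431 to 461 CPM in wild type. Kit, also a gate marker, made up most of these sums, with 102 to 292 and 317 to 337 CPM. The rest of the list was lower in the mutants too. The sums were 127, 302 and 280 CPM in mutants C, D and Q, of which Kit was 102, 292 and 270. In wild types A, F and L they were 461, 451 and 431 CPM, of which Kit was 330, 337 and 317. The sums of 5 endothelial markers were 42.7 to 57.9 CPM in the mutant and 72.8 to 78.3 CPM in wild type. Neither the mast cell nor the endothelial sums overlapped between groups. The sums of 8 hepatoblast markers, 76.97 to 562 CPM in the mutant and 26.3 to 83.3 CPM in wild type, overlapped. Those of 8 erythroid markers also overlapped, with 847, 134 and 131 CPM in mutants C, D and Q and 204 to 399 CPM in wild type. So did those of 7 macrophage markers, 291 to 524 and 293 to 304 CPM, and the low neutrophil, B cell and T cell sums. No marker of the megakaryocyte, mast cell, endothelial, hepatoblast, erythroid and macrophage lists was at 0 in all libraries. No sum was tested, and the part of these lists in the values of Gp9 and Mgll was not tested.

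Partners of the neighbours, encoded elsewhere in the genome, were counted in 8 lists. Of 67 tested partner genes, 1 had an unadjusted p under 0.05 by edgeR with all libraries (4.80% of all genes). Without mutant C, 4 did (10.4% of all genes). Adjusted over all genes, 0 of the 67 passed by edgeR with all libraries (0.155% of all genes) and 1 without mutant C (0.840% of all genes). That gene is Cnr2, the cannabinoid receptor of immune cells, listed with Mgll. Cnr2 had 7.82, 7.74 and 8.15 CPM in mutants C, D and Q and 19.1, 17.4 and 18.7 CPM in the wild types. The groups were well apart and mutant C did not stand out. With all libraries its log2 change was -1.22 (standard error 0.14, adjusted p = 0.0539 by edgeR). Without mutant C it was also -1.22, and Cnr2 fell (adjusted p = 0.00482 by edgeR), a call that DESeq2 also made with all libraries. Abhd6, which encodes another monoacylglycerol hydrolase, stood at 0.51 on the log2 scale with all libraries (standard error 0.35) and at 0.14 without mutant C (standard error 0.25). The 6 tested genes of that list had a median of -0.10 with all libraries and 0.00052 without mutant C.

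In the other 7 lists no partner passed in either fit. The 11 further oligosaccharyltransferase genes had a median log2 change of 0.75 with all libraries and 0.07 without mutant C. Among them, the subunit genes Ostc and Ost4 had log2 changes of 1.14 and 1.35 with all libraries and 0.24 and 0.20 without mutant C. They had 502 and 402 CPM in mutant C, and 131 to 149 and 81.2 to 90.7 CPM in mutants D and Q. The wild types had 107 to 128 and 61.9 to 82.8 CPM. Of 10 translocon genes, Sec61g and Ssr4 had the smallest p, with log2 changes of 1.72 and 1.55 with all libraries and 0.35 and 0.26 without mutant C. The translocon medians were 0.14 and 0.04 in those fits. The COPI genes Cope and Copb2 stood at 0.61 and 0.28 with all libraries and at -0.05 and 0.12 without mutant C, so Cope changed sign, and the list of 8 had medians of 0.04 with all libraries and 0.01 without mutant C. For selenocysteine insertion, the tRNA kinase gene Pstk and the tRNA-associated protein gene Trnau1ap stood at 0.86 and 0.95 with all libraries and at 0.14 and 0.13 without mutant C. The 6 genes had medians of 0.06 and 0.02 in the same fits. Ruvbl2, which pairs with RUVBL1, stood at 0.36 with all libraries and 0.05 without mutant C, and Pih1d1 of the same assemblies at 0.84 and 0.08. The 10 genes of that list had medians of 0.05 and -0.05. Among splicing partners of Isy1, Ppie stood at 0.65 with all libraries and 0.04 without mutant C, and Prpf19 at 0.32 and 0.07. The medians over 7 genes were 0.15 and 0.03. Ccz1, part of the factor that activates RAB7, stood at 0.41 with all libraries and 0.09 without mutant C, and Rabgap1 at -0.30 and -0.11. The medians over 9 genes were -0.09 and -0.04. Over all tested genes the medians were -0.02 and -0.01. Mutant C was the highest library for Ostc, Ost4, Sec61g, Ssr4, Cope, Copb2, Pstk, Trnau1ap, Ruvbl2, Pih1d1, Ppie, Prpf19 and Ccz1.

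By root mean square difference of centred log2 CPM over the 6 libraries, the gene most like Rpn1 was Ddx56 on chromosome 11 (0.017), and that most like Eefsec was Gins3 on chromosome 8 (0.013). The gene most like Ruvbl1 was Kin (0.013), for Isy1 it was Ahcy (0.018), for Cnbp Eif4a1 (0.020) and for Rab7 Eif1 (0.019). Sec61a1 was nearest to Psme3 (0.032) and Copg1 to Srpk1 (0.023). None of these 8 lies on chromosome 6, but the share of all tested genes that do was not counted. Gata2 differed from the neighbours by 1.09 (Copg1) to 1.57 (Cnbp), and for each of the 8 more than 97.3% of tested genes were nearer in pattern than Gata2. This share was not computed for genes elsewhere, so whether it is particular to the neighbours was not tested.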

How the data were processed

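Each deposited file holds 1 library. Per the file headers, the authors deposited expected counts (reads that RSEM assigns to a gene, not normalized) and TPM (corrected for length and scaled to 1 total in every library). FPKM, also deposited, was left aside. Transcript lengths are the deposited length column, which RSEM averages over transcripts. RSEM 1.2.18, Bowtie 1.1.1, CASAVA 1.8.2 and the build mm10 come from the submitters' processing notes. The sources used here give no role for these tools, no annotation and no strandedness. Symbols matched 24448 of 24815 identifiers.

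Expected counts were rounded and fitted with edgeR 4.0.16 (R 4.3.3): filterByExpr (minimum count 10), TMM, quasi-likelihood F test over all genes, Benjamini-Hochberg adjustment, threshold 0.05. Standard errors are the absolute log2 change over the square root of F, and 95% intervals use the fit's total degrees of freedom. Alternatives were DESeq2 1.42.0, its size factors, no filter, limma 3.58.1 on log2(TPM + 1) and log2(TPM + 0.1), lowess offsets for length (span 0.3) and leaving out each library. Leaving out mutant C together with the filter was added after seeing the data. For ratios the log2 CPM prior count was 2. The code was tested on simulated data. Members, lists and tests were chosen with earlier results of these data known. Named genes are the members, Gata2, protein-coding genes within 250 kb, genes called within 1 Mb, per partner list a called gene or the 2 smallest p, and each member's nearest gene in pattern. Gp9 and marker genes were named after their values were seen.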

Additional observations from a re-analysis of the deposited data

How the results depend on the processing

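The count of neighbours past the threshold was 0 under every alternative run. That of other genes within 1 Mb was 0 under the single changes run, windows of 500 kb and 2 Mb included, and 1 (Gp9) with mutant C and the filter both left out, chosen after seeing the data. The filtered fits without mutant D, mutant Q or any single wild type called 0 of all genes. Counts of 0 in those fits could not differ and say nothing about the neighbours. Gata2 passed the threshold without a filter (log2 change -2.19, adjusted p = 0.0465 by edgeR), with DESeq2 (-2.17), with length offsets (-2.09) and without mutant C. It missed the threshold with DESeq2 size factors (adjusted p = 0.0628 by edgeR) and on both TPM scales (0.378 and 0.439 by limma). It also missed when any library other than mutant C was left out (0.256 to 0.380 by edgeR). The log2 change of Gata2 over leaving out each library was -2.38 to -1.97. On the log2(TPM + 1) and log2(TPM + 0.1) scales the median of all genes was -0.50 and -0.63, and 5 neighbours with a change above 0 by edgeR turned below 0: Rpn1 (-0.35 and -0.36), Ruvbl1 (-0.27 on both), Rab7 (-0.41 on both), Cnbp (-0.11 on both) and Isy1 (-0.19 on both). With length offsets, Sec61a1 was at 0.074 and Copg1 at 0.14, each past 0 from the other side. Leaving out single libraries gave Sec61a1 -0.10 to 0.043, above 0 without mutant C (0.043) and without wild type A (0.012). None of these values passed the threshold, and the cause of the changes of sign was not tested. The count of partner genes past the threshold was 1 with DESeq2 and 0 to 1 when libraries were left out, and 1 with the added combination, Cnr2 each time. For Mgll, single libraries left out gave -2.34 to -1.39 on the unfiltered counts. No paired analysis was possible because the replicate letters differ between the groups. Depth limits Mgll and Dnajb8, and 3 libraries a group limit all intervals.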

Other observations

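The deposited length column gives a gene's mean transcript length in each library, weighted by how RSEM shares reads among its transcripts. For Mgll it was 3676 bases in all mutant libraries and in wild type L, against 2514 and 1865 bases in wild types A and F, at 2 to 21.0 counts per library. For Copg1 it was 3799 bases in mutant C and 4056 and 4049.5 bases in mutants D and Q, against 4028, 4022 and 4021 bases in wild types A, F and L. For Rpn1, Isy1, Eefsec and Sec61a1 it was the same in all libraries. These differences were not tested.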
